A study of Mus musculus with 6 samples.

Results

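Potassium channel genes, the genes of the Kcn families, were followed in intervertebral discs (IVDs) of mice with and without Col2Cre-driven removal of Adgrg6. Of 43472 gene symbols in the count files, 92 carry a symbol made of Kcn, family letters and a number, and 62 of these had at least 60 counts summed over the 6 libraries. These 62 genes are the members described here. A further 26 symbols had 1 to 59 counts, and Kcna1, Kcna3, Kcna10 and Kcns2 are listed at 0 in every library. Next to the limit, Kcnj16 with 61 counts lies inside it, and Kcnj2 with 57 counts and Kcnk12 with 54 counts lie outside it. By role, 30 members are voltage-gated pore subunits, 8 are calcium- or sodium-activated pore subunits, 7 are inward rectifiers, 7 are tandem-pore channels and 10 are auxiliary subunits.

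Whole thoracic and lumbar IVDs were taken at postnatal day 20 from C57B6/J mice, and each library is a pool of discs from 2 to 3 mice. The mutant group has 3 libraries of genotype Col2Cre; Adgrg6f/f, in which Cre from a Col2 promoter recombines Adgrg6 alleles flanked by loxP sites throughout the disc from embryonic life. The control group has 3 libraries that the genotype label calls wild type and the sample titles call Col2Cre controls, and the methods describe the controls as Cre (-) littermates. The question asked by the comparison is which transcripts differ in discs without Adgrg6, an adhesion G protein-coupled receptor, before overt disc pathology.

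Potassium channels let K+ ions leave cells, which sets the resting membrane potential, ends action potentials, shapes calcium entry and takes part in the control of cell volume. Most channels assemble from pore subunits around a central selectivity filter, a short loop rich in glycine that strips water from K+ and passes it in preference to Na+. Auxiliary subunits carry no pore and tune traffic and gating. Disc cells are not electrically excitable in the sense of nerve or muscle, but they live in a matrix of high and changing osmolarity and mechanical load, a setting in which large-conductance, tandem-pore and volume-regulating potassium channels have been studied in cartilage and disc.

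The selectivity filter is the sequence that unites the pore-forming members, so its coding DNA was read from the longest coding transcript of each gene in GENCODE M21 on GRCm38. The pattern searched was a serine or threonine codon, any codon, a glycine codon, a tyrosine or phenylalanine codon and a glycine codon. All 52 pore-forming members hold it and the 10 auxiliary members do not, against 2.64% of the 21562 coding genes read the same way. Of the 7 tandem-pore members, 5 hold it at 2 places, and Kcnk1 and Kcnk6 hold it at 1. Below, the capitals mark the filter codons in stretches of 30 bases from Kcnma1 and Kcna6, which are among the most abundant members, and from 6 pore-forming members with an unadjusted p under 0.05 in the comparison described further on.
Kcnma1, chr14:23528404-23528433, minus strand: atgtctACAGTGGGTTATGGGgacgtttat
Kcna6, chr6:126738638-126738667, minus strand: atgaccACGGTAGGTTATGGGgacatgtac
Kcnk1, first base chr8:125995802 and last base chr8:126025028, joined across an intron, plus strand: ctctccACCACAGGCTATGGCcacacggtg
Kcnd2, first base chr6:21217400 and last base chr6:21714150, joined across an intron, plus strand: atgacaACACTGGGGTATGGCgacatggta
Kcns1, chr2:164164845-164164874, minus strand: atgaccACAGTGGGCTATGGGgatgtggtg
Kcnh3, chr15:99232923-99232952, plus strand: ctcaccAGTGTGGGCTTCGGCaacgtgtcc
Kcnh5, chr12:75087457-75087486, minus strand: cttacaACCATAGGATTTGGAaacatagct
Kcnh8, chr17:52877985-52878014, plus strand: ctcacaAGCGTTGGGTTTGGGaatgtgtct

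Over the 55 filter stretches read out this way, 37 carry a tyrosine codon between the closing glycine codons and 18 carry a phenylalanine codon. All 7 members of the Kcnh family (ether-a-go-go channels) carry phenylalanine there, and all 22 other voltage-gated stretches carry tyrosine. The tandem-pore stretches hold both, 5 with tyrosine and 7 with phenylalanine. These stretches lie in coding exons, and no sequence is shown for Kcng2 and Kcnn2.

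The libraries held 9061491 to 12017008 counts on genes, and 60 to 62 of the 62 members had at least 1 count in each. Counts of the targeted gene, listed under its older symbol Gpr126, were 1155, 971 and 1206 in controls 1, 2 and 3 and 1212, 1514 and 996 in mutants 1, 2 and 3 (log2 fold change 0.17, SE 0.18, adjusted p = 0.849). Counts over the whole gene also take reads from the exons that recombination leaves, so this value does not check the genotype labels. Cartilage markers (Col2a1, Acan, Sox9 and 7 others) summed to 82440 to 143700 CPM (counts scaled to a common library total), of which Col2a1 alone had 62510 to 123700 CPM, and nucleus pulposus markers summed to 2418 to 5828 CPM in every library, although Noto, a notochord marker, had 1 count in all. Control 1 stood apart in skeletal muscle markers, with a summed level of 4422 CPM against 201 to 289 CPM in the other 5 libraries. Control 3 stood apart in counts on long genes that discs hardly use, which is described with gene span further on.

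Potassium channel expression in these discs was carried by a few genes. Kcnma1, which encodes the pore of the large-conductance channel opened by calcium and voltage, had 551, 430 and 427 CPM in controls 1, 2 and 3 and 373, 585 and 382 CPM in mutants 1, 2 and 3. It alone made up 35.4% ± 2.93 (SD, n = 3) of the CPM of all members in control and 36.9% ± 3.49 (SD, n = 3) in mutant libraries. Together with Kcna6, Kcnq1 and Kcnq5 it made up 67.7% ± 6.67 in control and 69.0% ± 5.27 in mutant libraries (SD, n = 3). The 30 voltage-gated members held 46.4% ± 1.65 of the members' CPM in control and 43.9% ± 1.28 in mutant libraries (SD, n = 3).

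Set per kilobase of exon, which allows genes to be compared with each other, the order was Kcnq1 with 29.1 ± 9.97 CPM per kb, Kcna6 with 28.6 ± 4.07 and Kcnma1 with 27.0 ± 5.24 (SD over all 6 libraries). These 3 levels differ by less than their spread. Kcnq5 came next at 15.5 ± 5.02, with 9.77 to 22.2 CPM per kb over the libraries. Across libraries its range overlapped those of Kcnq1 and Kcnma1 but not that of Kcna6, which was 23.8 to 33.6. Within each single library Kcnq5 lay below Kcnq1, Kcna6 and Kcnma1. Kcnk2 at 9.72 ± 2.95 and Kcnk5 at 9.33 ± 2.24 followed and could not be ordered, and Kcnh2 stood at 6.20 ± 1.67 CPM per kb. The plot of levels per exon length shows that mutant and control points of these 7 genes interleave, with the exception of Kcnk5.

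**Figure D1:**
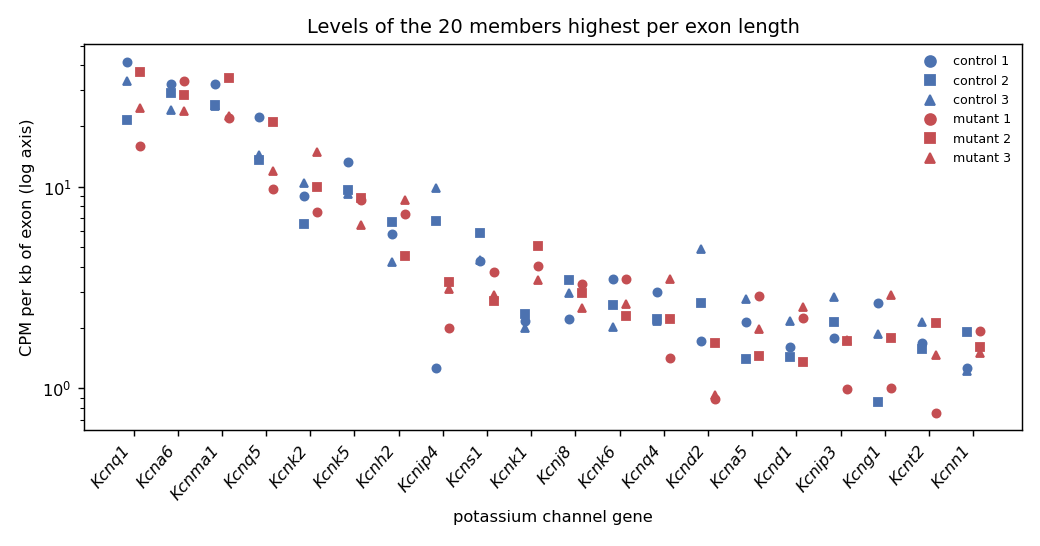
CPM per kilobase of exon (log axis) of the 20 members highest on that scale, one point per library, controls in blue and mutants in red. Kcnq1, Kcna6 and Kcnma1 lie at 16.0 to 41.7 CPM per kb, and Kcnip4 spreads from 1.27 to 9.86, with control 3 at the top.

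Across the comparison as a whole, no member differed between mutant and control discs after Benjamini-Hochberg adjustment in edgeR's quasi-likelihood test over 16152 genes, of which 0.00619% (1 gene) passed an adjusted p under 0.05. DESeq2 also gave 0 members at an adjusted p under 0.05, while edgeR with no filter on low counts gave 1 member (Kcnd2). At an unadjusted p under 0.05, 9 of the 60 members that passed the filter on low counts were called, or 15%, against 7.21% of all genes tested. Kcnn4, Kcnk1 and Kcnab3 were higher in mutants, and Kcnd2, Kcns1, Kcnh3, Kcnh5, Kcnh8 and Kcnk13 were lower. Such a difference is termed called here, and each fold change below comes with its adjusted p from the same test. For all genes the share called higher was 2.89% and the share called lower was 4.32%. The adjusted p of these 9 members was 0.676 to 0.691. In pooled whole discs, fewer cells of a type and less RNA per cell cannot be told apart.

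The fitted log2 fold change was below 0 for 43 of the 60 tested members and above 0 for 17, with a median of -0.43, where 51.6% of all genes tested were below 0 and their median was -0.01. The median over members was -0.23 without control 3. With a background on long genes, described further on, subtracted, it was -0.29 at the receptor-family rate and -0.042 at the long-gene rate. The 3 mutant libraries all lay on one side of the 3 controls in 7 members, or 11.7%, against 11.4% of all genes tested. These were Kcnab3, Kcnn4 and Kcnk1, higher in all 3 mutants, and Kcnip3, Kcnk5, Kcnd2 and Kcns1, lower in all 3. Kcna7 did not pass the filter. The plot of fold changes by role shows most voltage-gated members to the left of 0, and the 4 fitted above 0 at 0.28 or less.

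**Figure D2:**
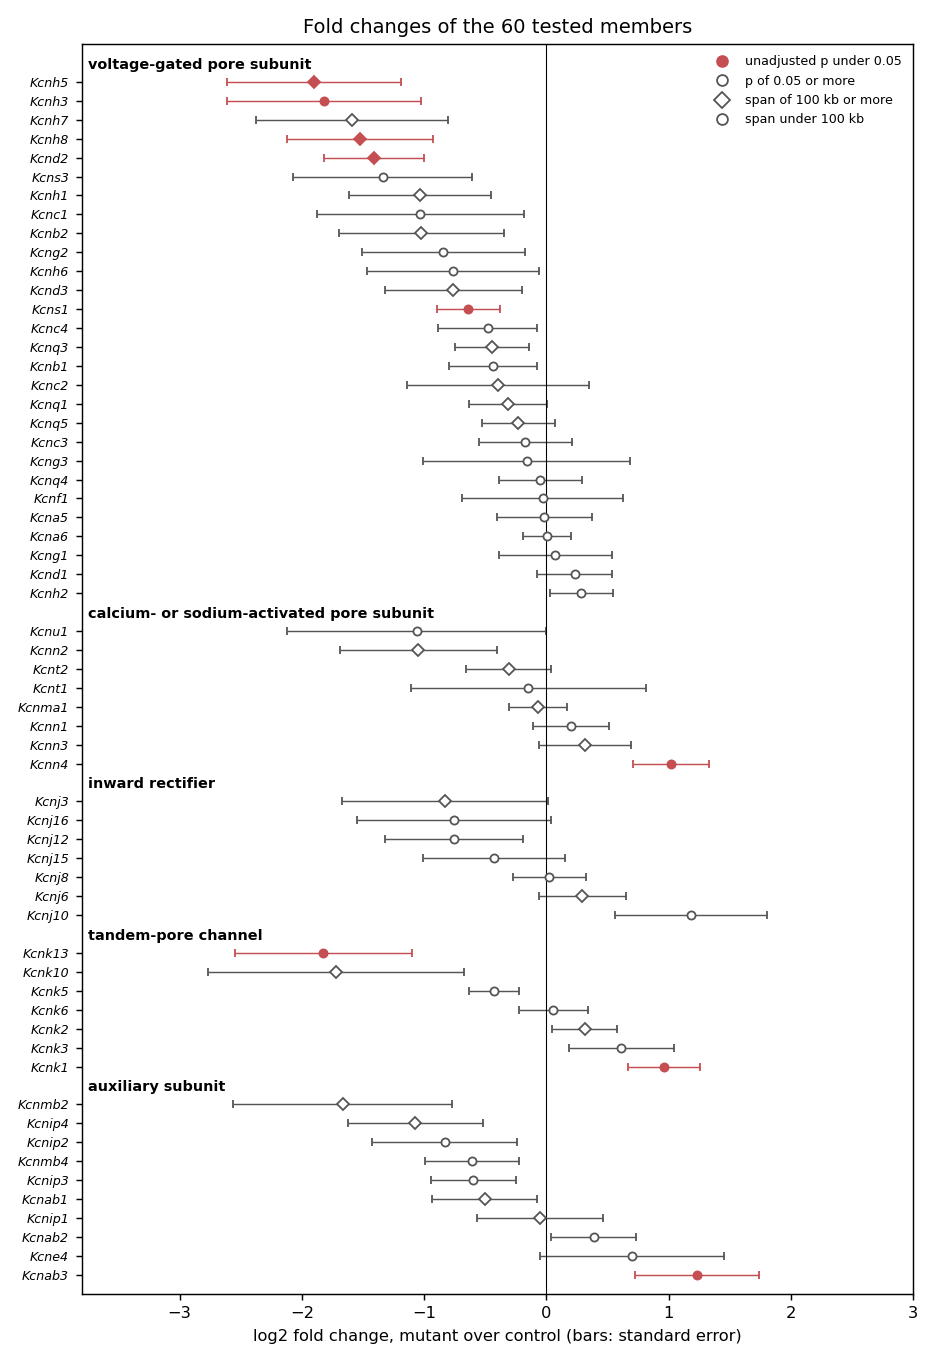
Log2 fold change of mutant over control, with its standard error, for each of the 60 tested members by role. Filled red symbols mark an unadjusted p under 0.05 and diamonds mark genes with a span of at least 100 kb; values run from -1.90 for Kcnh5 to 1.23 for Kcnab3.

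Among the voltage-gated pore subunits, 5 of the 28 tested members were called, or 17.9%, against 7.21% of all genes tested. All 5 were lower in mutants, where 4.32% of all genes were called lower. Of the 28, 24 had a fitted value below 0, against 51.6% of all genes. Kcnd2 (chr6:21215503-21729805) encodes a subunit of the fast-inactivating A-type current. It had 8.86, 13.7 and 25.3 CPM in controls 1, 2 and 3 and 4.54, 8.62 and 4.77 CPM in mutants 1, 2 and 3. The highest mutant library lay just under the lowest control, and control 3 was well above the others. The fitted log2 fold change was -1.41 (SE 0.41, adjusted p = 0.676), and without control 3 it was -0.89, still called. In edgeR with no filter on low counts it was -1.38, with an adjusted p of 0.015.

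Kcns1 (chr2:164163619-164171113) encodes a modulatory subunit that is silent alone and alters delayed-rectifier channels when it joins them. Its levels were 11.6, 16.1 and 11.8 CPM in controls 1, 2 and 3 and 10.2, 7.32 and 7.84 CPM in mutants 1, 2 and 3. The groups did not overlap, and controls 1 and 3 were nearly equal. The log2 fold change was -0.64 (SE 0.26, adjusted p = 0.676). The call was lost without control 2 (-0.48), without mutant 2 (-0.53) and without mutant 3 (-0.58), and DESeq2 did not call Kcns1 (-0.62).

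The other lower calls in this role fell in the Kcnh family, whose members carry slowly gating currents in neurons and, for Kcnh2, the repolarizing current of the heart. Kcnh5 (chr12:74897220-75177332) had 1.60, 3.21 and 8.18 CPM in controls 1, 2 and 3 and 0.45, 1.30 and 1.70 CPM in mutants 1, 2 and 3, with a log2 fold change of -1.90 (SE 0.71, adjusted p = 0.676). Kcnh8 (chr17:52602709-52979194) had 2.13, 5.98 and 10.4 CPM in controls 1, 2 and 3 and 1.13, 3.01 and 2.22 CPM in mutants 1, 2 and 3, with a log2 fold change of -1.53 (SE 0.60, adjusted p = 0.676). In both genes control 3 was the highest library and the groups overlapped. Kcnh3 (chr15:99224861-99242817) had 0.64, 4.43 and 7.48 CPM in controls 1, 2 and 3 and 1.13, 0.65 and 1.80 CPM in mutants 1, 2 and 3. Control 1 lay at the lowest end of all 6 libraries, so the difference rested on controls 2 and 3 (log2 fold change -1.82, SE 0.79, adjusted p = 0.691).

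Each of these 3 Kcnh calls was lost without control 3, with a log2 fold change of -1.04 for Kcnh5, -0.90 for Kcnh8 and -1.08 for Kcnh3, and each was lost without mutant 1, at -1.50, -1.19 and -1.75 in the same order. Kcnh8 was also not called without control 2 (-1.56) or without mutant 3 (-1.54). Kcnh3 was also not called without control 2 (-1.79), without mutant 2 (-1.49) or without mutant 3 (-2.24). Kcnh2, the most abundant of the family, had 20.6 to 32.3 CPM in controls and 21.9 to 41.7 CPM in mutants (log2 fold change 0.28, SE 0.26, adjusted p = 0.825).

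**Figure D3:**
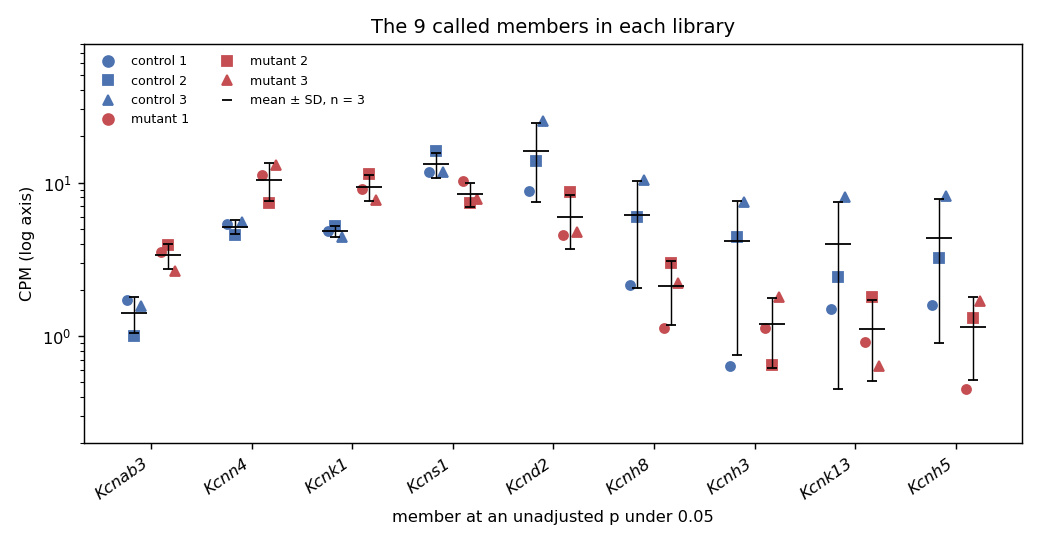
CPM (log axis) of the 9 members with an unadjusted p under 0.05, one symbol per library, with the mean and SD of the 3 libraries of each group. Kcnab3, Kcnn4 and Kcnk1 have every mutant above every control, while Kcnh8, Kcnh3, Kcnk13 and Kcnh5 have control 3 as the highest library and overlapping groups.

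The abundant voltage-gated members were not called, and their groups overlapped. Kcna6, a shaker-type delayed rectifier, had 192, 174 and 142 CPM in controls 1, 2 and 3 and 199, 169 and 142 CPM in mutants 1, 2 and 3 (log2 fold change 0.01, SE 0.20, adjusted p = 0.996). On the opposite strand an uncharacterized transcript, Gm26673, overlaps 68.0% of the span of Kcna6 and holds 7421 counts against 10374, and the strand setting of the counting is not given in the sources used here. Kcnq1, the slowly activating channel of heart and epithelia, had 171, 87.9 and 137 CPM in controls 1, 2 and 3 and 65.5, 152 and 100 CPM in mutants 1, 2 and 3 (log2 fold change -0.32, SE 0.32, adjusted p = 0.841), and its value ran from -0.66 without mutant 2 to -0.032 without mutant 1. Its antisense partner Kcnq1ot1, which silences neighbouring genes on the paternal chromosome, overlaps 29.0% of the span and had the same fitted value of -0.32, so reads of the pair may not be separable.

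Kcnq5, a subunit of the M-type current, had 171, 105 and 110 CPM in controls 1, 2 and 3 and 75.1, 162 and 91.8 CPM in mutants 1, 2 and 3 (log2 fold change -0.23, SE 0.30, adjusted p = 0.879), and it was called without mutant 2 (-0.61) and was 0.050 without control 1. Kcnq1 and Kcnq5 shared an order of libraries in which control 1 and mutant 2 were highest and mutant 1 lowest.

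Kcna7, a shaker-type channel of skeletal muscle and heart, was seen almost only in control 1. It had 5.44 CPM there, 0.11 CPM in control 2, 0.41 CPM in mutant 2 and 1.17 CPM in mutant 3, and was listed at 0 in control 3 and mutant 1, where a count of 0 allows up to 0.234 and 0.340 CPM. Control 1 is the library with the high skeletal muscle markers, and 9 of the 10 tested markers of that list were called lower in mutants. Among the symbols under the limit, Kcnj11, the muscle and beta-cell subunit of the ATP-sensitive channel, had 18 of its 20 counts in control 1. The part of muscle in these levels was not tested.

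Among the calcium- or sodium-activated pore subunits, 1 of 8 tested members was called, or 12.5%, against 7.21% of all genes tested. Kcnn4 (chr7:24370263-24386690) encodes the intermediate-conductance calcium-activated channel, known from red cells, lymphocytes and secretory epithelia. It had 5.33, 4.54 and 5.53 CPM in controls 1, 2 and 3 and 11.1, 7.32 and 12.9 CPM in mutants 1, 2 and 3. The controls lay close together and every mutant was above them. Its log2 fold change was 1.02 (SE 0.31, adjusted p = 0.676), and it was 0.84 to 1.24, still called, when any of the 6 libraries was left out.

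Markers of cells that use Kcnn4 were in part higher in mutants. The summed level of 6 red blood cell precursor markers was 296, 34.2 and 91.7 CPM in controls 1, 2 and 3 and 245, 381 and 186 CPM in mutants 1, 2 and 3, with a median log2 fold change of 0.94 over the 6. The called one, Slc4a1, the anion exchanger of the red cell membrane, had 4.48, 1.11 and 1.87 CPM in controls 1, 2 and 3 and 15.3, 26.3 and 5.93 CPM in mutants 1, 2 and 3, so that every mutant lay above every control as for Kcnn4 (log2 fold change 2.68, SE 0.60, adjusted p = 0.553). The summed level of 9 macrophage and osteoclast markers was 146 to 159 CPM in controls and 142 to 230 CPM in mutants, and of the 8 tested Cd68, a lysosomal protein of macrophages, was called higher. Cd68 had 3.59 to 5.44 CPM in controls and 7.65 to 7.83 CPM in mutants (log2 fold change 0.74, SE 0.32, adjusted p = 0.684). B and T cell markers summed to 15.4 to 24.1 CPM in controls and 15.9 to 17.7 CPM in mutants. The part of these cells in the level of Kcnn4 was not tested.

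Kcnma1 had a log2 fold change of -0.07 (SE 0.24, adjusted p = 0.96), and its groups overlapped. Kcnt2, a sodium-activated channel, had 11.5, 10.9 and 14.7 CPM in controls 1, 2 and 3 and 5.22, 14.5 and 10.1 CPM in mutants 1, 2 and 3 (log2 fold change -0.31, SE 0.35, adjusted p = 0.856). The sign of Kcnt2 was not stable, at -0.68 without mutant 2, 0.029 without mutant 1 and 0.22 with a background on long genes, described further on, subtracted at the long-gene rate. With that background subtracted at the receptor-family rate, Kcnt2 kept its sign, at -0.17. Of the small-conductance channels, Kcnn1 had a fitted value of 0.20, Kcnn3 of 0.31 and Kcnn2 of -1.05, and none of the 3 was called. Kcnn2 spans 417 kb, and its controls ran from 1.49 to 8.30 CPM.

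None of the 7 inward rectifiers was called in the filtered edgeR fit, against 7.21% of all genes tested. Kcnj10 (chr1:172341210-172374085), the channel through which glia take up potassium, had the largest fitted value of this role. It had 1.28, 5.42 and 1.71 CPM in controls 1, 2 and 3 and 9.87, 6.18 and 2.97 CPM in mutants 1, 2 and 3, and control 2 lay above mutant 3. The fitted log2 fold change was 1.18 (SE 0.62, adjusted p = 0.724). Leaving out 1 library moved it between 0.76 without mutant 1 and 2.06 without control 2, and it was called without control 2 and without mutant 3 (1.52). DESeq2 (1.20) and edgeR with no filter on low counts (1.21) also called Kcnj10.

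The libraries had the same order in Kcnj10 as in the summed level of 10 Schwann cell and glia markers (Mbp, Sox10 and 8 others). That sum was 509, 2027 and 959 CPM in controls 1, 2 and 3 and 3866, 2852 and 1267 CPM in mutants 1, 2 and 3, and 1 of the 10 was called higher in mutants. The share of glia in the level of Kcnj10 was not tested. In the plot of Kcnj10 beside these markers the libraries keep the same order on both axes, from control 1 to mutant 1.

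**Figure D4:**
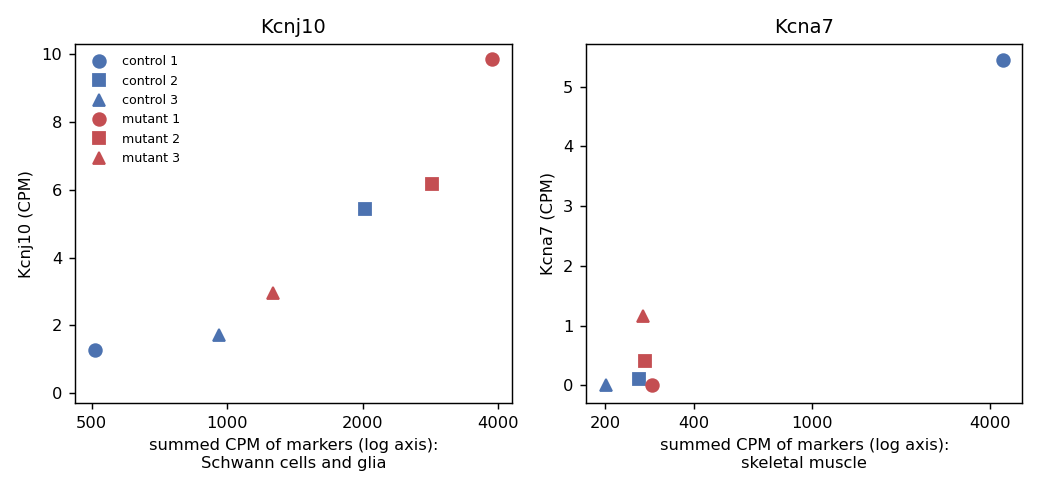
Left, CPM of Kcnj10 against the summed CPM of 10 Schwann cell and glia markers; right, CPM of Kcna7 against the summed CPM of 10 skeletal muscle markers; one point per library and a log scale on the horizontal axes. Kcnj10 spans 1.28 CPM (control 1) to 9.87 CPM (mutant 1) in the order of the markers, and Kcna7 is above 1.17 CPM in control 1 only.

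Kcnj8, the pore of the vascular ATP-sensitive channel, had 5.65, 8.74 and 7.56 CPM in controls 1, 2 and 3 and 8.40, 7.57 and 6.35 CPM in mutants 1, 2 and 3 (log2 fold change 0.02, SE 0.30, adjusted p = 0.991). Kcnj6, a channel opened by G protein beta-gamma subunits, had 5.76, 11.8 and 11.5 CPM in controls 1, 2 and 3 and 7.60, 16.0 and 12.0 CPM in mutants 1, 2 and 3 (log2 fold change 0.30, SE 0.35, adjusted p = 0.861). Its groups overlapped over most of their range. The value of Kcnj6 was 0.031 without mutant 2 and 0.57 without mutant 1. With the background on long genes subtracted, Kcnj6 was 0.43 at the receptor-family rate and 0.80 at the long-gene rate, not called at either. Kcnj16, at the edge of the limit, had 0.32 to 1.55 CPM over the 6 libraries.

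Among the tandem-pore channels, which carry background potassium current, Kcnk1 was called higher and Kcnk13 lower, out of 7 tested. That is 28.6%, against 7.21% of all genes tested. Kcnk1 (chr8:125995170-126030685), a weak background channel that was the founding mammalian member of the class, had 4.80, 5.20 and 4.44 CPM in controls 1, 2 and 3. It had 9.08, 11.3 and 7.73 CPM in mutants 1, 2 and 3. All mutants lay above all controls, and the spread of the controls was 0.38 CPM (SD, n = 3). The log2 fold change was 0.96 (SE 0.30, adjusted p = 0.676), and it was 0.82 to 1.09, still called, when any of the 6 libraries was left out.

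Kcnk13 (chr12:99964499-100062682), a channel inhibited by halothane, had 1.49, 2.44 and 8.03 CPM in controls 1, 2 and 3 and 0.91, 1.79 and 0.64 CPM in mutants 1, 2 and 3. Control 3 alone stood apart, and mutant 2 lay above control 1. Its log2 fold change was -1.82 (SE 0.72, adjusted p = 0.676). It was not called without control 3 (-0.78), without mutant 1 (-1.66) or without mutant 3 (-1.54).

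The more abundant tandem-pore channels were not called. Kcnk5 (chr14:20140057-20181809), a channel sensitive to external pH and linked to cell volume control, had 45.3, 32.8 and 31.3 CPM in controls 1, 2 and 3 and 29.3, 29.9 and 22.0 CPM in mutants 1, 2 and 3. Every mutant was below every control, by a margin smaller than the spread within either group. The fitted log2 fold change was -0.43 (SE 0.20, adjusted p = 0.701). It was -0.52 without control 3, where it was called, and -0.22 without control 1. Of 10 cartilage markers, whose median was -0.29, Matn3, a cartilage matrix protein, was called lower, with 686, 474 and 410 CPM in controls 1, 2 and 3 and 407, 285 and 222 CPM in mutants 1, 2 and 3. Hapln1, which links aggrecan to hyaluronan, was not called and was also lower in every mutant, at 858 to 1172 CPM in controls and 599.8 to 834 CPM in mutants. Col2a1 (0.27) and Sox9 (0.11) were fitted above 0 and not called, and the rest of the list was fitted below 0. The summed level of the list was 132400, 141600 and 82440 CPM in controls 1, 2 and 3. It was 143700, 117000 and 138600 CPM in mutants 1, 2 and 3, and these groups overlapped. The part of cartilage cells in the level of Kcnk5 was not tested. Kcnk2, a channel opened by stretch and arachidonic acid, had 44.6, 32.1 and 51.8 CPM in controls 1, 2 and 3 and 36.9, 49.4 and 73.6 CPM in mutants 1, 2 and 3 (log2 fold change 0.31, SE 0.26, adjusted p = 0.813). Leaving out mutant 3 gave 0.016 for Kcnk2 and leaving out mutant 1 gave 0.55. Kcnk6 had 8.34 to 14.5 CPM in controls and 9.52 to 14.5 CPM in mutants (log2 fold change 0.06, SE 0.28, adjusted p = 0.973).

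Among the 10 auxiliary subunits, 1 was called, or 10%, against 7.21% of all genes tested. Kcnab3 (chr11:69326258-69333042) encodes a cytoplasmic beta subunit of shaker-type channels with an aldo-keto reductase fold. It had 1.71, 0.996 and 1.56 CPM in controls 1, 2 and 3 and 3.52, 3.91 and 2.65 CPM in mutants 1, 2 and 3, with no overlap (log2 fold change 1.23, SE 0.51, adjusted p = 0.676). These levels rest on 149 counts in all, and an antisense gene, Kcnab3os, overlaps 33.9% of the span with 90 counts and a fitted value of 0.95. The call was lost without control 2 (1.03), without mutant 1 (1.23), without mutant 2 (1.12) and without mutant 3 (1.38), and in the fit with no filter on low counts (1.25).

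Some neuron markers were higher in the same libraries as Kcnab3 and Kcnk1. Of 11 neuron markers 10 were tested and their median was 0.35 on the log2 scale, and 3 of them, all neurofilament genes, were called higher at 1.78 to 2.93. In 1 of these 3 genes every mutant lay above every control, at 0.32 to 1.22 CPM in controls and 2.22 to 2.95 CPM in mutants, and in the other two the groups overlapped. Rbfox3, a splicing factor of mature neurons, was called lower (-1.04), and Tubb3, a neuronal tubulin, was listed at 0 in all 6 libraries. The summed level of the list was 11.8, 37.5 and 47.7 CPM in controls 1, 2 and 3 and 42.0, 41.6 and 22.0 CPM in mutants 1, 2 and 3, and these groups overlapped. Annulus and tendon markers were also in part higher in mutants, with 3 of 8 called higher, none called lower and a median log2 value of 0.67. Their summed level was 25890, 18450 and 10590 CPM in controls 1, 2 and 3. In mutants 1, 2 and 3 it was 22860, 40840 and 36470 CPM, and these groups overlapped. The called Col1a1 overlapped too, with 12820 CPM in control 1 and 11500 CPM in mutant 1, and Mkx was fitted at -0.01. Thbs4, a matrix protein of tendon, had 113, 72.5 and 62.7 CPM in controls 1, 2 and 3 and 148, 200 and 180 CPM in mutants 1, 2 and 3. Tnmd, a membrane protein of tendon cells, had 28.7 to 33.9 CPM in controls and 39.9 to 85.3 CPM in mutants. In both, as in Kcnab3 and Kcnk1, every mutant lay above every control and mutant 2 was highest. The endothelial list and the list of smooth muscle and mural cells each had 1 of 10 called higher, with medians of 0.30 and 0.38, and the latter had 1 called lower. The part of these cell types in the levels of Kcnab3 and Kcnk1 was not tested.

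The related beta subunit Kcnab2 had 6.23 to 7.15 CPM in controls and 5.86 to 13.1 CPM in mutants (log2 fold change 0.39, SE 0.35, adjusted p = 0.823), and its value was 0.0078 without mutant 1, the highest library, and 0.62 without mutant 2. Kcnip3, a calcium sensor that binds A-type channels and also acts as a transcriptional repressor, had 6.29, 7.53 and 10.1 CPM in controls 1, 2 and 3 and 3.52, 6.10 and 6.14 CPM in mutants 1, 2 and 3. These groups did not overlap, although the gap between control 1 and mutant 3 was small (log2 fold change -0.60, SE 0.35, adjusted p = 0.746), and the value was -0.38 without control 3 and -0.34 without mutant 1. Kcnip4 (chr5:48389502-49524907), a calcium sensor of the same family and the longest member, had 4.59, 24.5 and 35.8 CPM in controls 1, 2 and 3 and 7.26, 12.3 and 11.3 CPM in mutants 1, 2 and 3. Control 1 was below every mutant and control 3 above every other library (log2 fold change -1.07, SE 0.55, adjusted p = 0.718), and it was called by DESeq2 (-1.05) and in edgeR with no filter on low counts (-1.04), but not with the filter. With the filter the value was -1.52 without control 1, which was called, and -0.48 without control 3, which was not. Kcne4, a single-pass subunit, lies wholly within the opposite-strand Gm29536, which holds 417 counts against 90, so its level of 0.39 to 2.97 CPM is uncertain.

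The lower values were not spread evenly over gene span, the distance from the start to the end of a gene with its introns. Counts on genes that discs hardly use were measured per megabase of gene span in 36 long neuronal genes, and their median was 41.2, 136 and 354 in controls 1, 2 and 3 and 31.2, 95.3 and 59.7 in mutants 1, 2 and 3. Control 3 had the highest CPM in all 36 of these genes. Summed counts over summed span of 1625 genes of receptor families were 15.9, 46.0 and 126 in controls 1, 2 and 3 and 10.7, 27.7 and 20.0 in mutants 1, 2 and 3. Both rates put control 3 highest and mutant 1 lowest.

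Multiplied by the span of a member, the long-gene rate gives the counts such a background would leave on it. For Kcnh5 this came to 11.5, 38.1 and 99.3 counts in controls 1, 2 and 3, where 15, 29 and 105 were counted, and to 8.74, 26.7 and 16.7 counts in mutants 1, 2 and 3, where 4, 16 and 16 were counted. Over the 6 libraries the span-derived counts were 109% of the counts of Kcnh5 and 98.3% of those of Kcnh8. They were 78% for Kcnip4, 51.1% for Kcnd2 and 40.3% for Kcnk13. With counts at this rate subtracted, Kcnip4 had a log2 fold change of -0.20, Kcnk13 was no longer called (-2.215) and Kcnd2 was still called (-1.47). With counts at the receptor-family rate subtracted, Kcnip4 had -0.94, and Kcnk13 (-1.90) and Kcnd2 (-1.40) were still called. For the compact genes the span-derived counts at the long-gene rate were small. They were 0.817% for Kcns1, 2.5% for Kcnn4, 3.27% for Kcnab3, 5.78% for Kcnk1 and 7.28% for Kcnh3. Control 3 was also the highest library for Kcnh3 and for Kcnk13, where span-derived counts were 6.63% and 33.8% of its counts.

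With members split at a span of 100 kb, a limit chosen after the values were seen, a larger share of the long members was fitted below 0. Of the 23 tested long members, 20 were fitted below 0, with a median of -0.76. Of all 2381 tested genes of that span, 69.8% were fitted below 0, with a median of -0.19. Among the long members 3 were called lower (Kcnd2, Kcnh5 and Kcnh8), or 13%, against 12.4% of all genes of that span. No long member was called higher, against 2.14% of genes of that span. Of the 37 tested short members, 23 were fitted below 0, with a median of -0.16. Of all 13019 tested short genes, 48% were fitted below 0, with a median of 0.01. Among the short members 6 were called, or 16.2%, with 3 lower and 3 higher. Of all short genes 2.80% were called lower and 3.06% higher.

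The share of lower calls among long members was thus close to that of long genes in general. Long genes with a mean under 10 CPM had a median of -0.88 and 90.2% of 846 were fitted below 0, and the 14 long members under 10 CPM had a median of -1.03 with 13 of 14 below 0. Control 3 was the highest library in 16 of the 23 long members and in 11 of the 37 short members, and mutant 1 was the lowest in 14 and 5 of them. For 15 tested members the span-derived counts reached at least 50% of the counts, and all 15 were fitted below 0, with control 3 highest in 13. For the other 45 the median was -0.16, and 28 were fitted below 0.

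Across the 60 tested members, which share the same 6 libraries, log10 span went with the log2 ratio of control 3 over controls 1 and 2 (Pearson's r 0.47, Spearman's rho 0.47). It went the other way with the log2 fold change of mutant over control (r -0.45, rho -0.47), and less so when control 3 was left out (r -0.32, rho -0.34). These are descriptions across genes, which are not independent replicates. Below the limit of 60 counts, control 3 held 228 of the 598 counts of the 26 remaining symbols, or 38.1%, while it held 18.3% of all gene counts. It was the highest library for 13 of the 26 symbols and the only one with counts for 4 of them. The part of this background in the lower values was not tested.

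**Figure D5:**
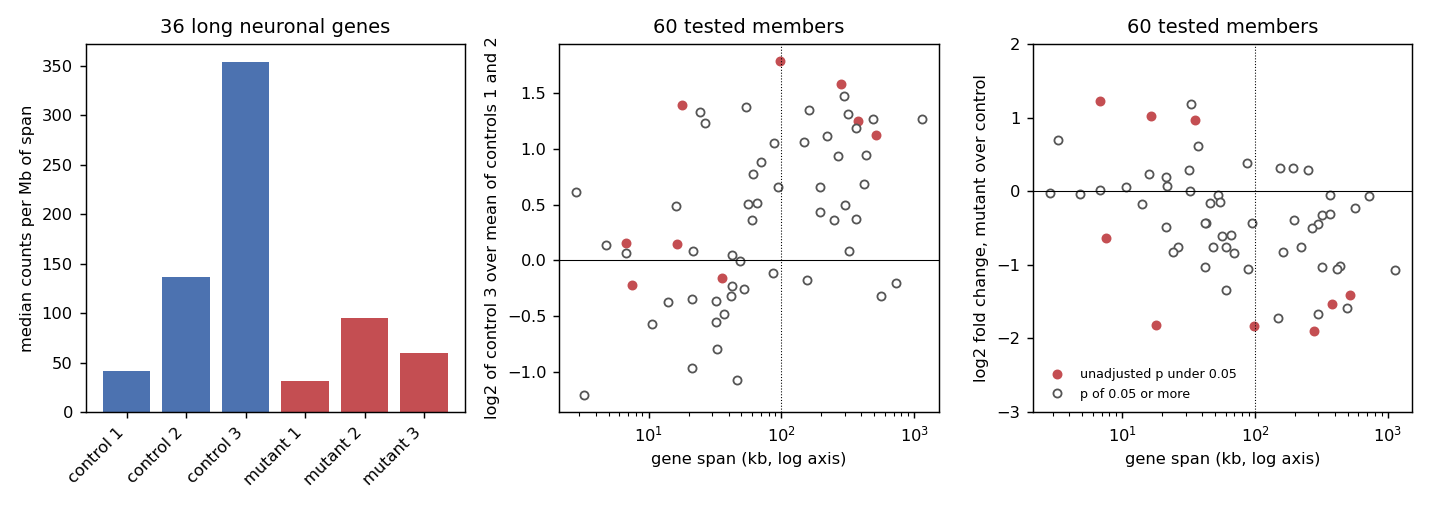
Left, median counts per megabase of span on 36 long neuronal genes in each library; middle, log2 ratio of control 3 over the mean of controls 1 and 2 against gene span (log axis) for the 60 tested members; right, log2 fold change of mutant over control against gene span. The rate is 354 in control 3 and 31.2 in mutant 1, and the dotted line marks 100 kb, beyond which 20 of 23 members lie below 0 in the right panel.

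Genes that work with potassium channels but carry other names were read from a list of 46 (pacemaker channels, channel partners, cation chloride cotransporters, potassium-dependent exchangers and regulators), of which 36 were tested. Of these, 3 were called higher and 3 lower, or 16.7% in all, against the 7.21% of all genes given above. The median over the 36 was -0.01, and none passed an adjusted p under 0.05 in edgeR. Hcn2, a pacemaker channel, had 2.13, 4.98 and 3.59 CPM in controls 1, 2 and 3 and 9.42, 7.08 and 7.31 CPM in mutants 1, 2 and 3, without overlap (log2 fold change 1.15, SE 0.39, adjusted p = 0.676). Sgk1, a kinase that keeps ion channels and transporters at the cell surface, was at 35.6 to 46.4 CPM in controls and 47.7 to 63.2 CPM in mutants (log2 fold change 0.49, SE 0.18, adjusted p = 0.676). Slc12a7, a potassium chloride cotransporter that lets swollen cells lose salt, was at 24.6 to 32.2 CPM in controls and 33.4 to 44.5 CPM in mutants (log2 fold change 0.42, SE 0.18, adjusted p = 0.686). All 6 fits that left out a library called Hcn2, with values of 0.91 to 1.45. The neurofilament genes called higher, given beside Kcnab3, had the same direction as Hcn2, and the uncalled neuron markers Stmn2, Gap43 and Elavl3 were also fitted above 0. Rbfox3 (-1.04, called lower) and the uncalled Syt1 (-1.50), Elavl4 (-0.70) and Snap25 (-0.35) had the opposite direction. The summed level of the neuron list overlapped between groups, and the part of neurons in the level of Hcn2 was not tested. Sgk1 was not called without control 2 (0.39) or mutant 3 (0.42), and Slc12a7 was not called without control 1 (0.46), control 2 (0.32), mutant 1 (0.47) or mutant 3 (0.31).

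The lower calls of that list included genes with a span over 100 kb. Dpp6, a partner of A-type channels such as that of Kcnd2, spans 910 kb and had 4.37, 14.4 and 31.1 CPM in controls 1, 2 and 3 and 4.65, 8.79 and 4.34 CPM in mutants 1, 2 and 3 (log2 fold change -1.48, SE 0.58, adjusted p = 0.676). Slc24a4, a sodium, calcium and potassium exchanger, had 2.56, 3.32 and 5.22 CPM in controls and 1.48, 1.95 and 0.85 CPM in mutants (log2 fold change -1.37, SE 0.54, adjusted p = 0.676). Control 3 was the highest library in both genes, and without it neither was called, with values of -0.64 for Dpp6 and -1.02 for Slc24a4. Neither was called without mutant 1 (-1.30 and -1.35 in the same order) or without mutant 3 (-1.30 and -1.10), and Slc24a4 was not called without control 2 (-1.446). Oxsr1, a kinase found in most cells, is listed at 0 in all 6 libraries, so a 0 in these files is given only as listed.

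Promoters were read for 45 of the 62 members from RefSeq on GRCm38.p6, as 300 bases from 250 before to 50 after each start. The STAT-type motif TTCNNNGAA, searched on both strands, lay in 6 of their 68 promoters, or 8.82%, against 8.30% of all 32851 promoters. These 6 belong to Kcnip3, Kcnmb2, Kcnab1, Kcnip1, Kcnj16 and Kcnj6, none of which was called. The CREB-type motif TGACGTCA lay in 0 of the 68, against 1.79% of all promoters. A match is a run of letters and not a measured site.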

How the data were processed

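RNA-seq of whole IVDs was available for 3 mutant and 3 control libraries. The authors deposited raw counts per gene symbol, 1 file per library. The submitters' processing notes name STAR 2.5.3a, HTSeq and DESeq2 with mm10 and GRCm38, whereas the methods name HISAT2 with GRCm38.88; the strand setting and feature type are not given in the sources used here. Lines of these files that name no gene were left out: reads on no feature (39.4 to 43.3%), not aligned (12 to 18.9%) and ambiguous (0.846 to 1.05%). A table of the authors' own comparison (fold changes and p-values for selected genes) was not used.

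Counts were normalized by TMM and tested with the quasi-likelihood test of edgeR 4.0.16 in R 4.3.3 (filterByExpr, count minimum 10), with Benjamini-Hochberg adjustment over all 16152 genes; the SE is the size of the log2 fold change over the square root of F. The threshold was an unadjusted p under 0.05; the study also asked for a log2 fold change over 1 in size, which Kcns1 and Kcnk1 do not reach. Per-library depth was 9061491 to 12017008 counts, reads carry no molecular identifiers, and no pair of libraries agreed within sampling noise (chi-square per degree of freedom 29.5 to 60.2). Spans, exon lengths and overlaps are from GENCODE M21, matched by symbol for all 62 members; the tool was tested on simulated data. DESeq2 1.42.0, RLE factors, no filter, a replicate block, subtraction of the span background at 2 rates and leaving out each library were tried; the rate of long genes was added after the data were seen. Members and gene lists were chosen with earlier results of these data known. Members named with values are those with an unadjusted p under 0.05, the 3 with the most counts in each role, those without overlap whose log2 fold change was 1 or more in size, and those next to the limit; Kcnh2, Kcna7, Kcnj11, Kcnn1, Kcnn2, Kcnn3 and Kcne4 were added after their values were seen. A protein table was not used here, so filter stretches were read as coding DNA. Some genes and filter stretches are not reported here.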

Additional observations from a re-analysis of the deposited data

How the results depend on the processing

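The 9 calls were the same 9 genes with RLE factors and with the span background subtracted at the receptor-family rate. In these settings 7.2% and 6.49% of all genes were called. Without a filter on low counts 15 of 62 members were called, 8 of them shared (not Kcnab3), and 1 (Kcnd2) passed an adjusted p under 0.05. In that fit 2276 genes were called in all, or 8.62%. DESeq2 called 12 of 62 members, 8 of them shared (not Kcns1), and 6.07% of all genes. With the background subtracted at the long-gene rate, 49 members were tested and 8 were called, 6 of them shared, against 6.19% of all genes. Kcnh5 and Kcnh8 no longer passed the filter there, and Kcnk13 was no longer called. The median over members was -0.042 and 3 genes of the other potassium list were called. Leaving out 1 library gave 4 to 18 called members and 618 to 2427 called genes, or 3.77 to 14.1% of all genes tested. It gave 1 to 7 called genes of the other list, a median of -0.54 to -0.23, and 0 members at an adjusted p under 0.05. Without control 1 there were 18 called members of 61 tested (15 lower), and 14.1% of all genes were called. Without mutant 1 there were 4 of 62, and 4.76% of all genes were called. Kcnn4, Kcnk1 and Kcnd2 kept an unadjusted p under 0.05 in all 6 of these fits.

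Some uncalled values changed sign. Kcna6 was -0.012 at the receptor-family rate and -0.041 at the long-gene rate, where Kcnj8 was -0.024 and Kcnt2 was 0.22. With 1 library left out, Kcna6 ran from -0.10 to 0.13, Kcnj8 from -0.11 to 0.16, Kcnk6 from -0.11 to 0.31, Kcnma1 from -0.30 to 0.081, Kcnq5 from -0.61 to 0.050 and Kcnt2 from -0.68 to 0.029. The cause was not tested where the setting itself does not show it.

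Deviations of same-numbered libraries had correlations of 0.129, -0.172 and 0.0929, and those of the other pairs ran from -0.258 to 0.179. With 3 libraries per group these values cannot tell whether the numbers pair the libraries. With a replicate block 7 of 60 members were called, 5 of them shared (not Kcns1, Kcnk13, Kcnh3 or Kcnab3). The median was -0.42 and 1002 of all genes were called, or 6.2%.

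Depth limits the low members, since the limit that a count of 0 allows is 0.234 to 0.340 CPM per library (3 counts, counting error only).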

Other observations

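Just outside the limit of 60 counts lay 2 potassium channel genes whose groups did not overlap in CPM. Of all genes tested, 11.4% had no overlap. Kcnk12, a tandem-pore channel related to Kcnk13, had 6, 7 and 6 counts in controls 1, 2 and 3 and 10, 16 and 9 counts in mutants 1, 2 and 3. Kcnk12 did not pass the filter on low counts and was not tested. Span-derived counts at the long-gene rate were 69.4% of its counts. Kcnj2, a strong inward rectifier of muscle and bone-forming cells, had 14, 12 and 13 counts in controls 1, 2 and 3 and 5, 12 and 1 counts in mutants 1, 2 and 3. Its CPM was lower in all 3 mutants (log2 fold change -1.16, SE 0.77, adjusted p = 0.780 in edgeR). The gap was narrow, with 1.01 CPM in control 3 and 0.98 CPM in mutant 2.

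Kcne3, an auxiliary subunit of Kcnq1 in epithelia, had 53 counts in all, with 25, 1 and 0 counts in controls 1, 2 and 3 and 8, 16 and 3 counts in mutants 1, 2 and 3. Kcne3 was singled out after its values were seen.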
